A study of Mus musculus with 8 samples.

Results

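The genes described here encode the proteins of the mitochondrial ribosome. They were taken from the deposited count table as the protein-coding genes whose GENCODE M21 symbol is Mrpl or Mrps followed by a number and an optional letter. The rule found 78 genes among 54837 gene identifiers, 49 with an Mrpl symbol (large subunit) and 29 with an Mrps symbol (small subunit). The rule used symbols alone and no measured value.

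The cells came from untreated mice of strain C57BL/B6 and were mammary basal cells, which line the outside of the epithelium of the ducts. They had been sorted into 2 groups by cell cycle phase, and the study asked which genes differ between the groups. G0 cells have left the cycle and rest, and G1 cells grow ahead of DNA replication. There were 4 runs, each with 1 G0 and 1 G1 library of oligo-dT-selected RNA. The labels give no age or sorting marker. They do not say that the runs came from separate animals, so p-values measure only the spread between these samples, some of which may be technical.

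Mitochondria carry their own ribosome, which translates the few proteins encoded by mitochondrial DNA, all of them membrane subunits of the respiratory chain and of ATP synthase. Its ribosomal RNAs are mitochondrial transcripts, while every protein is encoded in the nucleus and imported. Some of the proteins have a counterpart in bacterial ribosomes and others are peculiar to mitochondria. The large subunit forms peptide bonds and the small subunit binds and decodes the mRNA.

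Libraries held 5868728 to 15014104 counts, and the member genes took 0.216% to 0.358% of them (12690 to 48442 counts). Levels below are CPM (read counts scaled to a common library size, with TMM factors), and changes are log2 fold changes of G1 over G0 from edgeR's quasi-likelihood fit over all 15192 tested genes. The G0 library of run 4 stood apart, with 39094 genes detected, where the other 7 libraries had 20836 to 26614, and the gene model Gm10800 alone took 8.13% of its counts. Results are therefore also given without run 4. Gm10800 also took 1.71% of the G1 library of run 4 and 1.19% of the G0 library of run 3. It took at most 0.013% of any other library. Summed basal markers (8 genes) were at 19300 to 23950 CPM in G0 and 26330 to 29760 CPM in G1, where Acta2 and Cnn1 were called in the blocked fit (0.63 and 0.55) and the keratins Krt5 and Krt14 stood at 0.051 and 0.049. The 8 luminal markers summed to 950.9 to 1925 CPM in G0 and 1070 to 1704 CPM in G1. The 10 endothelial markers were all detected, and their sum was 158.6 to 277.4 CPM in G0 and 26.57 to 115 CPM in G1. The 5 adipocyte markers, also all detected, summed to 147.9 to 430.7 CPM in G0 and 29.69 to 204.9 CPM in G1. Fabp4 carried most of that sum, with means of 219 CPM in G0 and 88.26 CPM in G1. Adipoq, Plin1 and Cidec had too few counts to be tested. The 6 immune markers summed to 28.03 to 67.18 CPM in G0 and 26.91 to 54.23 CPM in G1. The 6 fibroblast markers summed to 169.1 to 594.5 CPM in G0 and 203.6 to 446.9 CPM in G1; Dcn carried most of that sum, while the other 5 were lower in G1 in all 4 runs and 4 of them were called lower in the blocked fit (Col1a1 -1.11, Lum -1.61, Pi16 -2.32, Col1a2 -0.60). The part of these other cells in the results below was not tested, and in sorted bulk samples fewer cells of a type and less RNA per cell cannot be told apart.

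Stretches of 100 bases just upstream of the RefSeq start are shown for 3 large-subunit genes (RefSeq sequence, GRCm38.p6, 5′ to 3′ on the gene's strand). No annotated exon, of the gene itself or of another, lies in these stretches. That of the small-subunit gene Mrps24 was also free of exons and is not shown. Mrpl55 was higher in every G1 library than in every G0 library, and Mrpl42 and Mrpl20 had the smallest p-values among members once run was in the model. The windows are chr11:59202386-59202485 (plus strand) for Mrpl55, chr10:95501950-95502049 (minus strand) for Mrpl42 and chr4:155802778-155802877 (plus strand) for Mrpl20. Capitals in the Mrpl20 sequence mark the E-box letters CACGTG, the one match there to any of the 6 motifs searched.
Mrpl55: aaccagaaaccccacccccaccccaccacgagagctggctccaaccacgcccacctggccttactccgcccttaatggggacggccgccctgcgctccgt
Mrpl42: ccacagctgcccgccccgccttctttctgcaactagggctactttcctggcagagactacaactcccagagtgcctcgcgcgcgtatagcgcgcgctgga
Mrpl20: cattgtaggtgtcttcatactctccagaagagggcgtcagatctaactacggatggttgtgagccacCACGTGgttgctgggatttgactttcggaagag

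Most mitoribosomal protein mRNAs had a higher estimate in G1 than in G0, by a small amount, and no single one passed the test. In edgeR's fit on phase alone, 73 of the 77 tested members had a positive log2 fold change, against 49.9% of all tested genes. Their median was 0.22, against -0.001 over all tested genes. It was 0.12 without the G1 library of run 3, 0.13 without the G0 library of run 4 and 0.33 without the G0 library of run 3. With an adjusted p under 0.05 none was called in either direction, as for the whole table (0% of 15192 genes in each direction). limma-voom called no gene at all, and DESeq2 called 10 genes higher and 24 lower of 15159, no member among them. At an unadjusted p under 0.05, each of these 3 tools had 2 members higher in G1, and in edgeR's fit the same rule took 1.03% of all genes; no member was lower, against 1.77% of all genes. The count of 2 was 1 to 10 with single libraries left out, highest without the G0 library of run 1 (9, against 1.63% of all genes) or run 3 (10, against 2.05%).

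Libraries of one run deviated together, so a fit with run as a block was made beside it. There 74 of 77 members had a positive log2 fold change (51.1% of all tested genes did), with a median of 0.23 against 0.007 over all genes. The fit called 0.481% of genes higher and 0.764% lower in G1, and no member in either direction. At an unadjusted p under 0.05, 21 members were higher, against 6.58% of all genes, and none lower, against 5.69%. Of the 77, 31 were higher in G1 in all 4 runs (11.3% of all genes were), 30 in 3 runs, 14 in 2 runs and 2 in 1 run. No member was lower in all 4 runs, against 9.46% of all genes.

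Mrpl53, whose product is a protein of the large subunit peculiar to mitochondria, was the one member not tested. It lies at chr6:83109040-83109939 (GRCm38) and had a count of 0 in all 8 libraries. Of its exon bases, 88.0% are shared with Gm42688 on the same strand or Ccdc142os on the opposite strand, which had 0 to 25 and 5 to 25 counts per library. The labels do not say how reads in shared exons were counted, so the 0 is no measure of its expression.

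Summed over all members, the level was 3015, 2574, 3423 and 2267 CPM in the G0 libraries of runs 1 to 4, and 3125, 2815, 3868 and 3096 CPM in the G1 libraries. The G1 library was the higher one in each run, but the groups overlapped, with a G0 mean of 2820 ± 506 CPM and a G1 mean of 3226 ± 450 CPM (SD, n = 4). Within runs the log2 ratio of the sums was 0.052, 0.13, 0.18 and 0.45. Run 1 thus gave almost no difference, and run 4, which holds the library that stood apart, gave the largest.

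**Figure D1:**
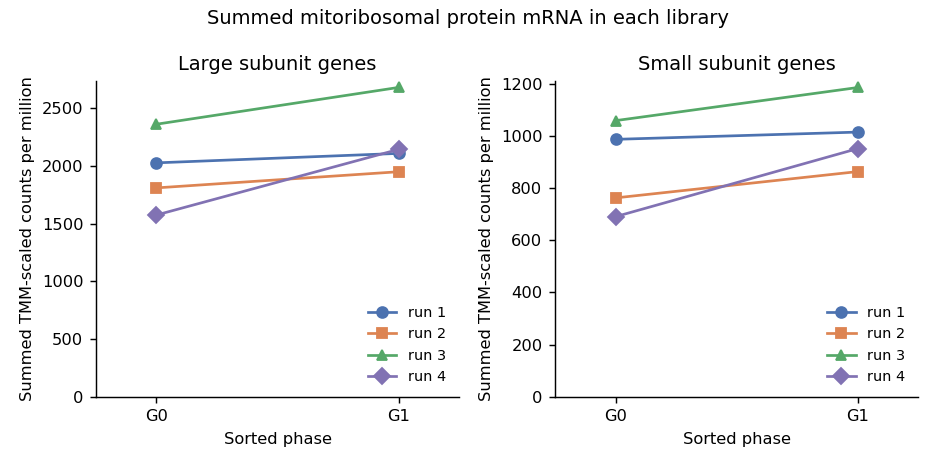
Summed TMM-scaled CPM (vertical axis, from 0) of the large subunit genes (left) and small subunit genes (right) in the G0 and G1 library of each run; a line joins the libraries of 1 run. Every line goes up from G0 to G1, least in run 1 and most in run 4.

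The same order of runs appeared gene by gene. The median log2 ratio of members was 0.047, 0.21, 0.21 and 0.5 in runs 1 to 4, against 0.005, 0.022, 0.021 and -0.007 over all tested genes. In run 1, 47 of the 77 members were higher in G1, in run 2 it was 61, in run 3 it was 60 and in run 4 it was 76. The largest of a gene's 4 ratios fell in run 4 for 49 members, and the smallest in run 1 for 37. Without run 4, the blocked median was 0.15 and 63 members were positive. Across the 77 members the ratios of one run were hardly related to those of another (Spearman's rho from -0.02 to 0.18, a description over genes that share their libraries), so the runs did not rank the members alike.

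**Figure D2:**
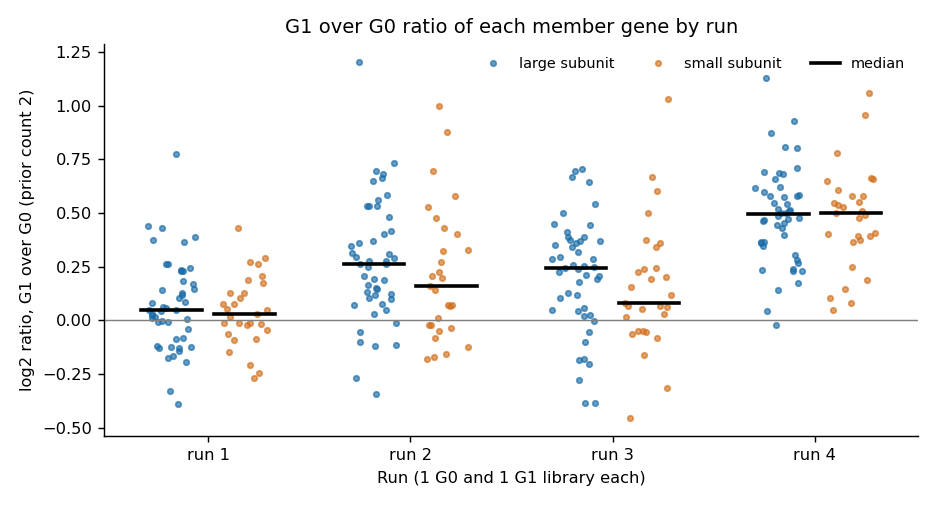
Log2 ratio of the G1 over the G0 library (vertical axis) for each of the 77 tested members in each run, large subunit in blue and small subunit in orange, with black bars at the medians. Medians lie near 0 in run 1 (0.048 and 0.029) and near 0.5 in run 4, and in each run most points of the large subunit are above 0.

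Both subunits had a positive median. The median log2 fold change was 0.24 for the 48 tested large-subunit genes and 0.19 for the 29 small-subunit genes with phase alone, and 0.26 and 0.20 with the block. The difference between the medians, 0.054 in the blocked fit, is a description and was not tested; members varied with an SD of 0.14. By run, the large-subunit median was 0.048, 0.26, 0.24 and 0.49 and the small-subunit median 0.029, 0.16, 0.081 and 0.5. By this measure the large subunit was ahead in 3 of 4 runs. The log2 ratios of the sums were 0.057, 0.108, 0.182 and 0.444 for the large subunit. For the small subunit they were 0.04, 0.179, 0.163 and 0.462, ahead in runs 2 and 4. In the blocked fit 46 of 48 large and 28 of 29 small-subunit genes were positive. Higher in G1 in all 4 runs were 22 and 9 of them, against 11.3% of all tested genes. The large subunit summed to 1945 ± 335 CPM over G0 libraries and 2222 ± 318 CPM over G1 libraries, and the small to 875.1 ± 176 and 1004 ± 136 CPM (SD, n = 4). The ratio of the large to the small sum ranged from 2.05 to 2.38 over G0 libraries and from 2.08 to 2.26 over G1 libraries, which overlap.

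Symbols do not always give the place of the protein. Mrps30 and Mrps18a encode proteins found in the large subunit, and Mrps36 encodes a component of the 2-oxoglutarate dehydrogenase complex of the citric acid cycle. With Mrps30 and Mrps18a moved to the large subunit and Mrps36 left out, the difference between subunits was 0.037 with phase alone and 0.034 with the block. By class, the 30 large-subunit proteins with a bacterial counterpart had a blocked median of 0.31. Of their genes, 17 were higher in G1 in all 4 runs, a rule that 11.3% of all tested genes met. The 20 tested large-subunit proteins classed as peculiar to mitochondria, Mrps30 and Mrps18a among them, had 0.20, with 5 higher in all 4 runs. In the small subunit the median was 0.21 for the 16 with a bacterial counterpart, 8 of them higher in all 4 runs. It was 0.18 for the 10 classed as peculiar to mitochondria, which include Mrps18b, with 1 higher in all 4. These are descriptions, and the ranges of the classes overlapped widely, from -0.09 to 0.47 and from -0.055 to 0.49 in the large subunit.

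**Figure D3:**
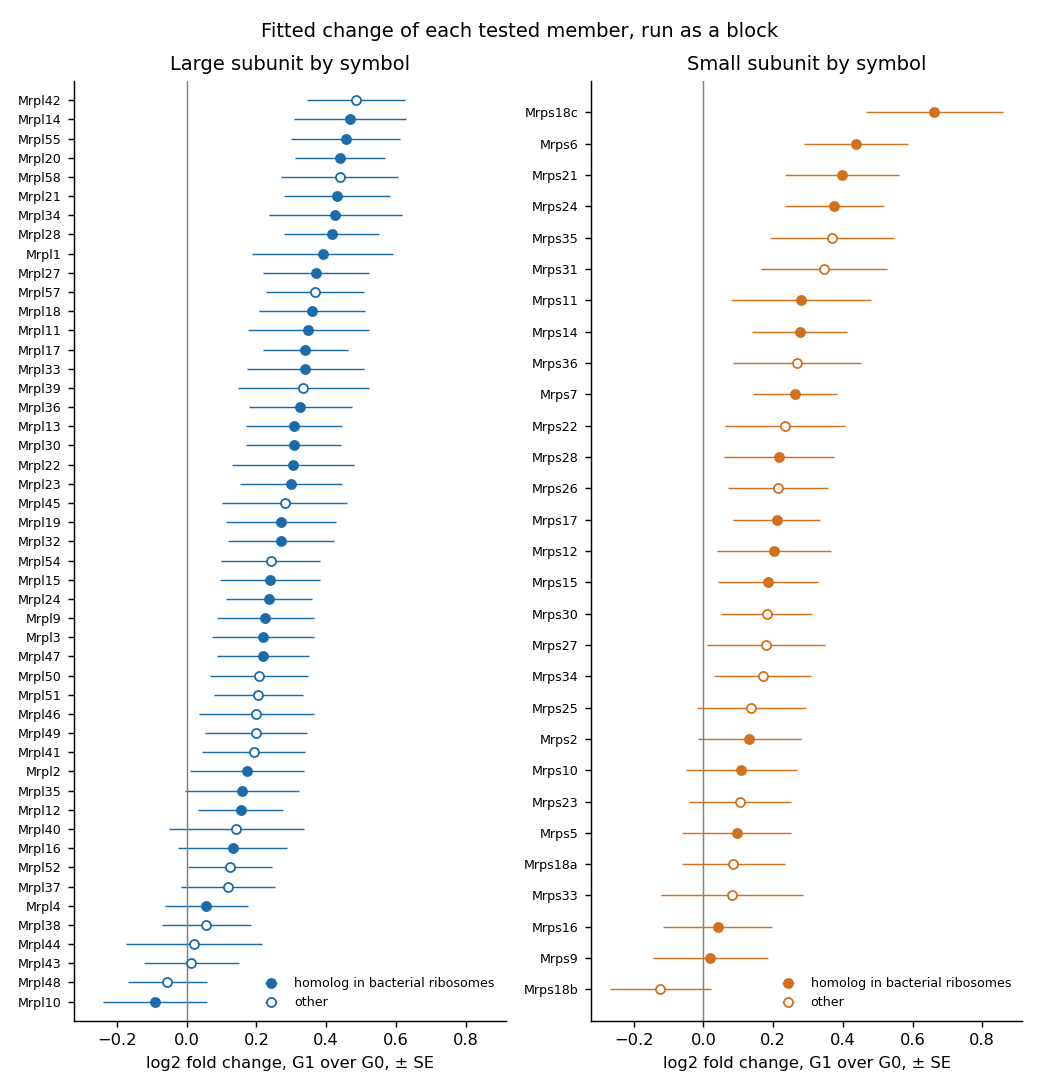
Log2 fold change of G1 over G0 (horizontal axis) with its standard error for each tested member in the fit with run as a block, sorted within the Mrpl genes (left) and Mrps genes (right); filled points have a counterpart in bacterial ribosomes. Values run from -0.12 (Mrps18b) to 0.66 (Mrps18c), and 74 of 77 lie above 0.

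In the large subunit, 2 genes had every G1 library above every G0 library, 2 of 77 members against 0.829% of all genes; no member had the reverse, against 1.17% of all genes. Mrpl55 was at 20.32, 19.95, 18.37 and 19.65 CPM in the G0 libraries of runs 1 to 4 and at 26.21, 24.22, 30.02 and 27.19 CPM in the G1 libraries. The G0 values lay close together and all below the lowest G1 value. Its log2 fold change was 0.46 ± 0.17 (SE) with phase alone, adjusted p = 1, and 0.46 ± 0.16 with the block, adjusted p = 0.191, so that the call was not made in either fit. Mrpl27, chosen for mention after its values were seen, was at 23.13, 22.64, 23.53 and 19.65 CPM in G0 and at 31.46, 29.13, 27.26 and 27.34 CPM in G1. Its groups too did not overlap, with a blocked log2 fold change of 0.37 ± 0.15 and adjusted p = 0.288. Both encode homologs of bacterial large-subunit proteins.

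Mrpl42 (chr10:95480805-95501940, minus strand), which encodes a protein peculiar to mitochondria, had the smallest blocked p of all members. It was at 38.19, 23.44, 43.88 and 29.66 CPM in G0 and at 43.01, 39.02, 57.38 and 47.65 CPM in G1. The G1 library was higher in each run, but the G0 library of run 3 lay within the G1 range. The blocked log2 fold change was 0.49 ± 0.14, adjusted p = 0.101, and 0.42, adjusted p = 0.449, without run 4. With offsets for transcript length and GC content in the blocked fit it was 0.47 and passed, adjusted p = 0.0429. That fit called 0.882% of all genes higher.

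Mrpl20 (chr4:155802878-155809975), the homolog of a bacterial protein needed early in building the large subunit, was at 75.93, 43.57, 108.4 and 46.99 CPM in G0. In G1 it was at 84.03, 64.39, 132 and 82.31 CPM. Run 3 was highest in both phases, and each G1 library was above the G0 library of its own run. The blocked log2 fold change was 0.44 ± 0.13, adjusted p = 0.102, and 0.32 without run 4, adjusted p = 0.517.

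Mrpl28, another bacterial-type protein, was at 34.02, 34.80, 46.42 and 31.45 CPM in G0 and at 44.64, 39.79, 61.88 and 50.64 CPM in G1. Only the G0 library of run 3 fell within the G1 range. Mrpl14, whose product lies on the face that meets the small subunit, was at 19.05, 13.78, 23.46 and 14.83 CPM in G0 and at 24.73, 16.56, 36.76 and 22.26 CPM in G1. Its 11.2% of exon bases shared with Tmem63b are on the opposite strand. Mrpl21 was at 32.84, 18.61, 30.60 and 19.65 CPM in G0 and at 33.80, 29.59, 43.29 and 28.68 CPM in G1, with almost no difference in run 1. The blocked log2 fold changes of these 3 genes were 0.42, 0.47 and 0.43, with adjusted p-values of 0.162, 0.19 and 0.203.

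Mrpl12, Mrpl10 and Mrpl11 encode proteins of the stalk that recruits translation factors, and none of their mRNAs passed the test. Mrpl12, the stalk protein itself, was among the 3 large-subunit genes with the highest level per kilobase of transcript. It was at 86.81, 80.79, 130.1 and 65.75 CPM in G0 and at 87.64, 74.59, 168.1 and 84.40 CPM in G1, with run 3 high in both phases. Mrpl10, at the stalk's base, was at 39.19, 35.34, 20.70 and 28.05 CPM in G0 and at 34.72, 36.11, 15.83 and 31.67 CPM in G1. Here run 3 was the lowest in both phases, and its blocked log2 fold change was -0.09 ± 0.15, the lowest of the Mrpl genes. Mrpl11, also at the stalk's base, was at 24.95, 14.67, 13.50 and 14.83 CPM in G0 and at 22.88, 19.62, 18.48 and 24.35 CPM in G1, with a blocked log2 fold change of 0.35 ± 0.17.

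Mrpl48, the member with the most counts, was at 179.2, 335.5, 325.7 and 219.2 CPM in G0 and at 178.1, 264.4, 303.8 and 258.9 CPM in G1. It was lower in G1 in 3 of 4 runs, with a blocked log2 fold change of -0.055 ± 0.11. Mrpl43 stood at 0.014 ± 0.14. Both encode proteins peculiar to mitochondria, and 8.7% and 33.4% of their exon bases are shared with Rab6a and Twnk on the opposite strand. The signs of Mrpl48, Mrpl43 and Mrpl10 changed when single libraries were left out.

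Per kilobase of the longest transcript, Mrpl52 was highest of the large subunit at 104.8 CPM, followed by Mrpl20 at 98.4 and Mrpl12 at 73.91. The lowest were Mrpl1 at 4.17, whose product forms the mobile stalk beside the exit site of the tRNA, Mrpl19 at 5.25 and Mrpl11 at 6.29. In the small subunit Mrps21 was highest at 58.46 CPM per kilobase, with Mrps7 at 48.41 and Mrps6 at 40.84, and Mrps35 at 3.54, Mrps25 at 4.31 and Mrps5 at 5.52 were lowest. Level per kilobase spanned a wide range within one complex, and it was unrelated to the change between phases (Spearman's rho 0 over 77 members). The ranking depends on the annotated length, which was 488 bases for Mrps21 and 6073 bases for Mrps25. Which transcripts the cells used was not measured. Undivided levels of the tested members ranged from 11.63 to 258.1 CPM. Of the exon bases of Mrps25, 69.8% are shared with Nr2c2 on the opposite strand, so its level is uncertain.

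In the small subunit, Mrps18c (chr5:100798627-100804471) had the largest log2 fold change of all members. It was at 25.13, 9.57, 7.70 and 7.68 CPM in G0 and at 25.65, 17.71, 15.93 and 13.30 CPM in G1. Runs 2, 3 and 4 gave log2 ratios of 0.88, 1.03 and 0.78, while both libraries of run 1 were high and alike. The blocked log2 fold change was 0.66 ± 0.20, adjusted p = 0.107. Without run 1 it was 0.92 and passed, adjusted p = 0.0318, in a fit that called 0.638% of all genes higher. Without run 4 it was 0.62, adjusted p = 0.398. Of its exon bases, 23.2% are shared with Gm43511 on the same strand.

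Mrps18a, Mrps18b and Mrps18c are paralogs that descend from one bacterial gene, and Mrps18c encodes the one that kept the bacterial place. Despite that descent, Mrps18a and Mrps18b were classed above as peculiar to mitochondria. Mrps18b was at 30.21, 32.66, 50.03 and 35.20 CPM in G0 and at 28.41, 32.12, 36.45 and 37.79 CPM in G1, lower in G1 in 3 of 4 runs. Its blocked log2 fold change of -0.12 ± 0.14 was the lowest of all members. Mrps18b shares 30.5% of its exon bases with Gm16279 on the opposite strand. Mrps18a was at 41.09, 38.11, 41.12 and 25.91 CPM in G0 and at 37.05, 33.58, 45.74 and 38.84 CPM in G1, with a blocked log2 fold change of 0.086 ± 0.15 that rested on run 4 (-0.068 without it). The 3 paralogs thus held the highest and the lowest estimate of the small subunit, though the difference between paralogs was not tested.

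Mrps6, whose bacterial homolog pairs with that of Mrps18c, was at 44.27, 17.80, 70.38 and 27.87 CPM in G0 and at 48.32, 35.80, 80.97 and 38.84 CPM in G1. Run 3 was highest and run 2 lowest in both phases, and its blocked log2 fold change was 0.44 ± 0.15, adjusted p = 0.182. Mrps6 shares 19.9% of its exon bases with Gm49711 or Slc5a3 on the same strand, and Mrps24 shares 15.4% with Urgcp on the same strand. Mrps24 was at 33.20, 27.65, 40.91 and 23.76 CPM in G0 and at 38.33, 31.89, 62.18 and 33.46 CPM in G1. Mrps21 was at 24.31, 16.64, 42.33 and 15.54 CPM in G0 and at 27.70, 19.09, 50.03 and 32.57 CPM in G1, with its largest step in run 4. Both were higher in G1 in every run, though the groups overlapped, at blocked log2 fold changes of 0.38 and 0.40 (adjusted p = 0.239 and 0.29).

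Mrps7, which lies in the head of the small subunit, and Mrps35, peculiar to mitochondria, had blocked log2 fold changes of 0.26 ± 0.12 and 0.37 ± 0.18. Mrps9 (0.02 ± 0.16), Mrps16 (0.041 ± 0.16) and Mrps5 (0.096 ± 0.16), all of bacterial type, lay near 0, and the signs of Mrps9 and Mrps16 turned when single libraries were left out. Mrps30 was at 62.86, 46.34, 58.51 and 38.24 CPM in G0 and at 60.93, 54.20, 61.88 and 54.23 CPM in G1, a blocked log2 fold change of 0.18 ± 0.13. Mrps36, no ribosome component, was at 7.80, 8.41, 25.01 and 11.79 CPM in G0 and at 7.72, 10.58, 29.30 and 17.18 CPM in G1. It has 3 annotated processed copies in the genome, so reads may be split among them. Mrpl48 and Mrpl23 have 1 such copy each, with the same limit.

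Members also varied between runs. Between the highest and the lowest of the 4 runs, a member's mean log2 level differed by a median of 0.7. This range over 4 means is not comparable with the single difference between phases, whose median size was 0.23. Mrps36 (1.8) had the widest range, followed by Mrpl23 (1.69), Mrps6 (1.58), Mrpl33 (1.57) and Mrpl34 (1.49), where Mrpl23, Mrpl33 and Mrpl34 were picked out after their values were seen. Mrpl33 was at 41.46 and 38.05 CPM in the libraries of run 1 and at 11.80 to 26.14 CPM in the others, while Mrpl23, whose product lies at the exit of the peptide tunnel, was at 11.61 and 13.67 CPM in run 1 and at 29.70 to 45.95 CPM elsewhere. Members thus did not follow one order of runs. The highest level fell in run 3 for 45 members and in run 1 for 30, and the lowest in run 2 for 32 and in run 4 for 29.

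**Figure D4:**
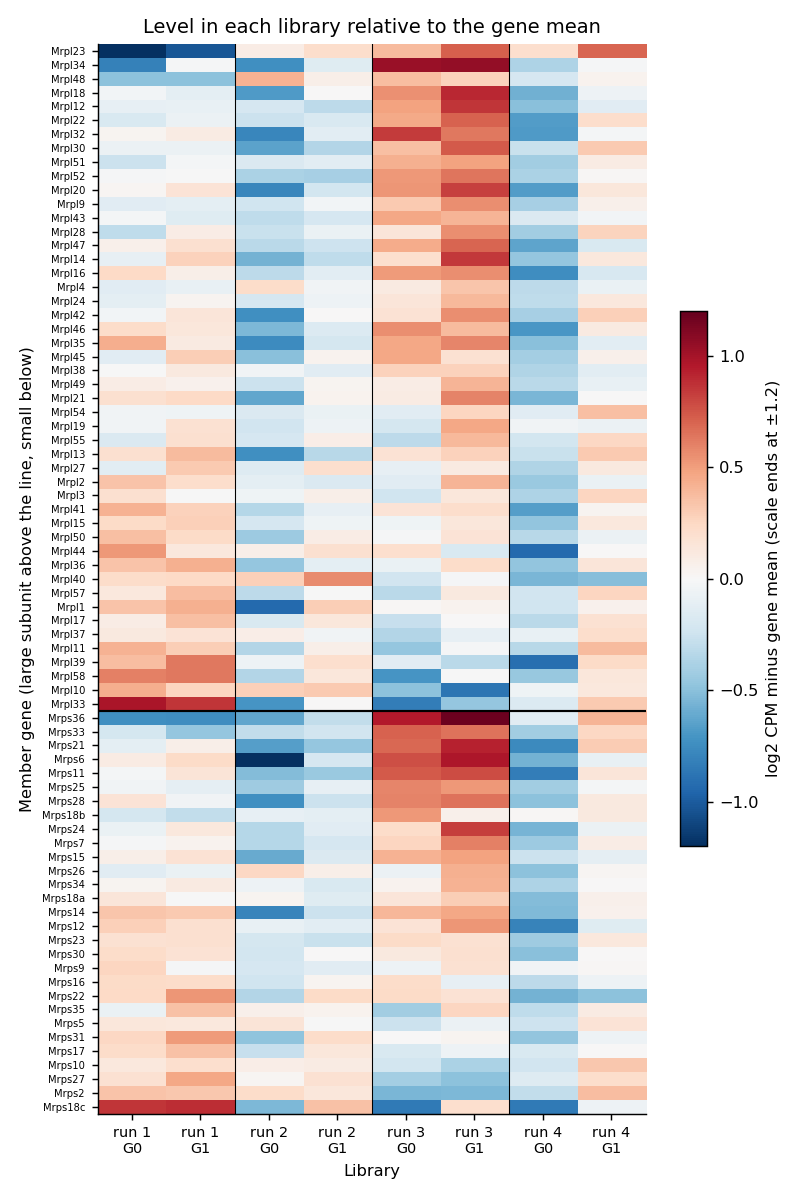
Level of each tested member (rows) in each library (columns, grouped by run) as log2 CPM minus the gene's mean, red above and blue below it. Rows are sorted within each subunit by run 3 against run 1; the G0 and G1 libraries of a run resemble each other, and Mrpl33 and Mrpl23 show opposite patterns in run 1.

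Nuclear genes of other mitochondrial lists had blocked medians of 0.05 to 0.22, those of mitochondrial transcripts were 0.35 (mRNAs) and 0.47 (rRNAs), and none in these lists was called in either fit. All 5 mitoribosome proteins with other symbols were positive in the blocked fit, with a median of 0.13. Chchd1, a small-subunit protein, had a G0 mean of 31.21 ± 10.8 CPM and a G1 mean of 41.44 ± 11.8 CPM (SD, n = 4), and its blocked log2 fold change was 0.42. Aurkaip1, another small-subunit protein, had 0.19. Among 14 translation factors 12 were positive, with a median of 0.22. The initiation factors Mtif2 and Mtif3 had 0.53 ± 0.18 and 0.38 ± 0.14, adjusted p = 0.193 and 0.225, and both were higher in G1 in all 4 runs. With offsets for length and GC, Mtif3 passed at 0.49, adjusted p = 0.0368, in a fit that called 0.882% of all genes higher.

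Of 23 genes for mitoribosome assembly and rRNA modification 19 were positive, with a median of 0.14. The GTPases Mtg2 and Noa1 had 0.42 and 0.30, adjusted p = 0.431 and 0.453. Of 16 tested genes for transcription and upkeep of mitochondrial DNA 11 were positive, with a median of 0.05. Among them were Ssbp1, which binds single-stranded mitochondrial DNA, at 0.36, and Mterf1a at 1.34 with means of only 0.79 CPM (G0) and 1.96 CPM (G1).

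For the transcripts that the mitoribosome reads, 10 of 11 tested mitochondrially encoded mRNAs were positive, with a blocked median of 0.35. Among the positive ones, mt-Co2, mt-Co3 and mt-Atp6 were barely counted. Their G0 means were 7.75, 12.62 and 8.19 CPM, against 1517 CPM for mt-Cytb, and their log2 ratios in run 1 were 0. The untested mt-Atp8 and mt-Nd4l had at most 10 and 7 counts in any library. mt-Nd2, a subunit of respiratory complex I, had 0.39 ± 0.10, adjusted p = 0.07, and mt-Cytb, of complex III, had 0.38 ± 0.11, adjusted p = 0.0845. The rRNAs of the mitoribosome, mt-Rnr1 and mt-Rnr2, had 0.54 ± 0.18 and 0.41 ± 0.17 (adjusted p = 0.226 and 0.365), and in run 3 both were lower in G1. Without run 3 they were called at 0.80 and 0.64 (adjusted p = 2.06e-05 and 8.83e-05), as was mt-Cytb at 0.47 (adjusted p = 0.0109). That fit left out the run where both rRNAs went the other way, and it called 0.477% of all genes higher. No blocked fit without another run called mt-Rnr1, mt-Rnr2 or mt-Cytb. Oligo-dT selection measures these RNAs only as far as they carry a poly(A) tail.

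Many members sit head to head with a neighbour, meaning that a gene on the opposite strand starts within 1000 bases. This held for 33 of the 78 members (42.3%), for 49.0% of the large and 31.0% of the small subunit genes, against 16.2% of 12721 tested protein-coding genes. Mrpl46 and Mrps11 form such a pair with each other. The 30 tested neighbours that are not members had a blocked median of 0.082, with 19 positive and none called, while the members beside them had 0.21, with 28 of 30 positive. Helq, a DNA helicase 29 bases from Mrps18c, had 0.15 ± 0.30, and Ighmbp2, beside Mrpl21, had -0.042 ± 0.21. For Ndufs6, a complex I subunit beside Mrpl36, the blocked log2 fold change was 0.31 ± 0.12, against 0.33 ± 0.15 for Mrpl36.

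RefSeq windows of 300 bases (250 before and 50 after the start, GRCm38.p6) were at hand for 69 members and were searched on both strands. The letters CCGGAAG, part of sites of ETS factors, were in 36.2% of members' windows and in 18% of those of 9969 tested protein-coding genes. TGCGCA, a part of the NRF1 site, was in 30.4% against 14.4%, and the full NRF1 palindrome, which holds TGCGCA, was in 4.3% against 2.0%. AAGATGG, the core of the YY1 site, was in 18.8% against 7.2%. CCAAT was in 39.1% against 38.4% and CACGTG in 7.2% against 10.2%. Members with and without TGCGCA had blocked medians of 0.27 and 0.21, those with and without CCGGAAG 0.23 and 0.22. With and without AAGATGG they were 0.20 and 0.23, and with and without CCAAT 0.21 and 0.24. With and without CACGTG (5 members with it) they were 0.33 and 0.22. With and without the NRF1 palindrome (3 members with it) they were 0.27 and 0.22. These differences were not tested, and a match of letters is no evidence of binding.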

How the data were processed

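Per the submitters' processing notes, the tools were Trimmomatic 0.35 and STAR 2.5.2a and the build was mm10. The labels name no counting program, strand setting or annotation release. The authors deposited unnormalized read counts per Ensembl gene for the 8 libraries. Symbols, positions and lengths came from GENCODE M21, which held all 54837 identifiers. The members and gene lists were chosen with earlier results of these data known.

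Genes were filtered with filterByExpr by phase, scaled by TMM and tested with edgeR 4.0.16 (R 4.3.3, quasi-likelihood, robust, two-sided) on phase alone, with Benjamini-Hochberg adjustment at 0.05 over 15192 genes. The standard error is the size of the log2 fold change divided by the root of F, and log2 ratios within runs used a prior count of 2. To see whether runs pair the libraries, each library's log2 CPM was taken relative to its phase's mean; these values correlated at 0.668, 0.47, 0.638 and 0.437 between the libraries of runs 1 to 4, and at most 0.097 between runs. The run numbers of the titles therefore pair libraries, and a fit with run as a block is printed beside the main one. The 12 pairs of libraries within a phase differed by at least 21.73 times the noise of counting, by chi-square over degrees of freedom, and none was treated as a copy.

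Members named with values were those called, in each subunit the 6 with the smallest blocked p, the 3 with the lowest log2 fold change, the 3 highest and 3 lowest per kilobase, and Mrps18a, Mrps18b, Mrps18c, Mrps30 and Mrps36, plus the 2 smallest blocked p of each mitochondrial list; others are marked where named or illustrate neighbours. Alternatives were RLE and upper-quartile factors, DESeq2 1.42.0, limma-voom (limma 3.58.1), the low-count filter left out or set to 10 counts in every library, libraries or runs left out, offsets for length and GC, and other sets of members. The scripts were tested on simulated data.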

Additional observations from a re-analysis of the deposited data

Results flagged for a closer look

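In 4 of the 62 checked groups of 4 libraries (a named member, or the summed level of all members or of a subunit, in 1 phase), 1 library lay far from the other 3; chance marks about 1 group in 20. Mrpl12, of the ribosomal stalk, was at 168.1 CPM in the G1 library of run 3, against 74.59 to 87.64 CPM in the other G1 libraries. Mrps25 was at 36.45 CPM in the same library, against 23.59 to 24.95 CPM. Mrpl11 was at 24.95 CPM in the G0 library of run 1, against 13.50 to 14.83 CPM in the other G0 libraries. Mrps18c was at 25.13 CPM in that library, against 7.68 to 9.57 CPM. In each case the library of the other phase of the same run was also among the highest 2 of its group.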

How the results depend on the processing

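The direction of the members' median was the same under every alternative run, from 0.123 (without G1 replicate 3) to 0.325 (without G0 replicate 3); without G0 replicate 4 it was 0.128 and without run 4 in the blocked fit 0.149. The median difference of large minus small was between 0.026 and 0.09 throughout. With run as a replicate block no call of a member changed. There 73 genes were called higher and 116 lower, and 21 members were higher at an unadjusted p under 0.05 (6.58% of all genes). With length and GC offsets added to the replicate block these counts were 134, 135 and 25 (9.52% of all genes). There 1 member, Mrpl42, was called (0.474), where 0.882% of all genes were called higher. Without a low-count filter 14 genes were called higher and 73 lower. There 4 members were higher at an unadjusted p under 0.05, against 0.595% of all genes. DESeq2 called 10 genes higher and 24 lower. Upper-quartile factors and the filter of at least 10 counts each left 1 member higher at an unadjusted p under 0.05. The shares of all genes were 0.849% and 0.934%. The cause of these differences was not tested.

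With single libraries left out, members at an unadjusted p under 0.05 ranged from 1 to 10 (0.358% to 2.05% of all genes). The blocked fit with run 1, 2, 3 or 4 left out called 99, 63, 73 and 21 genes higher and 175, 90, 144 and 76 lower, and had 22, 18, 19 and 12 members at an unadjusted p under 0.05, where 6.18%, 6.1%, 5.46% and 3.79% of all genes were higher by that rule. It called 1 member, Mrps18c (0.919), without run 1, where 0.638% of all genes were called higher, and none otherwise. The lowest gene counts came without run 4; each such fit has fewer samples.

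Genes near 0 changed sign. Upper-quartile factors gave -0.019 for Mrpl43 and -0.008 for Mrps9, the filter of at least 10 counts gave -0.015 and -0.001, length and GC offsets with the replicate block gave -0.046 and -0.044, and limma-voom gave -0.006 for Mrpl43. With 1 library left out, the estimates ranged from -0.209 to 0.153 for Mrpl10, -0.143 to 0.193 for Mrpl43, -0.217 to 0.064 for Mrpl48, -0.099 to 0.364 for Mrpl52 and -0.143 to 0.416 for Mrpl12. For Mrps genes they ranged from -0.042 to 0.123 for Mrps9, -0.056 to 0.124 for Mrps16, -0.064 to 0.384 for Mrps25, -0.048 to 0.15 for Mrps18a, -0.217 to 0.046 for Mrps18b and -0.18 to 0.803 for Mrps36. For mitochondrial transcripts they ranged from 0 to 1.123 for mt-Rnr1, -0.26 to 0.98 for mt-Rnr2 and -0.15 to 0.895 for mt-Nd2. In the blocked fit the sign turned without run 2 for Mrpl48 (0.046), Mrpl43 (-0.012) and Mrps16 (-0.035), without run 3 for Mrps9 (-0.065), and without run 4 for Mrpl43 (-0.034), Mrps16 (-0.029), Mrps5 (-0.005) and Mrps18a (-0.068).

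Depth limits single members: the least covered had 37 counts in 1 library.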
